A study of Mus musculus with 6 samples.

Results

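Of the 18512 entries in the count table, 8 genes are described here: the epithelial splicing regulators Esrp1 and Esrp2, the splicing regulators Rbfox2 and Mbnl1, and the FGF receptor genes Fgfr1, Fgfr2, Fgfr3 and Fgfr4. They were taken by their symbols, with earlier results of these data known, and each is given whatever its values. All 8 had an entry. They were measured by RNA sequencing in NMuMG cells, a line of epithelial cells grown from normal mouse mammary gland. The cells received either DMSO as the vehicle, TGF-β (5 ng/ml), or the same dose of TGF-β along with 50 uM of 2APB, a small molecule used to block the entry of calcium that follows the emptying of intracellular stores. Each group had 2 biological replicates, which gave 6 libraries. The study's results give the treatment as 24 h, whereas its methods place 2APB for 24 h ahead of TGF-β, so the time of 2APB relative to TGF-β is uncertain. All cells were of a single line and were serum-starved before TGF-β, and 2APB without TGF-β was not analysed here, so an effect of 2APB on its own cannot be told apart from an effect on the TGF-β response.

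The counts of a library summed to between 71840570 and 79473182, and every count was an even number. These totals exceed the average number of reads per sample that the methods of the study state, so how many reads stand behind a count is uncertain and the true depth may be lower. With all counts divided by 2, the numbers of the 8 genes called in the 3 comparisons were 5, 4 and 4, the same as without. Levels below are normalized counts, that is, counts scaled to the mean library by TMM factors, given as mean ± SD of 2 replicates. A gene was tested where its mean reached 20 normalized counts. Changes were called by the quasi-likelihood F-test of edgeR at an FDR no higher than 0.05, adjusted by the Benjamini-Hochberg method across all 13353 genes tested. Where a call was lost under some of the 15 other settings tried, an FDR given as "up to" a value is the highest over these settings. In the TGF-β+2APB replicates the log2 difference of a gene had an SD of 0.73 over genes, against 0.525 in TGF-β and 0.301 in DMSO. With a DMSO replicate left out, the calls between TGF-β and DMSO fell from 5548 to 2753 or 2895 genes, and those between TGF-β+2APB and TGF-β from 2334 to 858 or 834.

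The cells were checked against markers of mammary epithelium. Cdh1, which encodes E-cadherin, and the keratin genes Krt8 and Krt18 were among the abundant transcripts, with 35058 normalized counts or more for each in every library. The keratin gene Krt19 fell from a mean of 43625 normalized counts in DMSO to 10643 in TGF-β and 2564 in TGF-β+2APB. Krt7 went the other way, from 3311 to 3766 and 6920, and so did the claudin gene Cldn4, from 4.08 to 727.9 and 1808. Epcam, a surface protein of most epithelia, had deposited counts of 52 to 158, and Cldn7, a claudin of epithelial tight junctions, had 2 to 6. Grhl2 and Ovol2, transcription factors of epithelial cells, had at most 4. Hepatocyte transcripts were present in the DMSO cells, where the summed level of the 7 listed genes was 1113 and 1230 CPM (counts scaled to the library total), against 1.92 to 16.7 CPM in the other libraries. Alb, the albumin gene, was the most abundant of them, with deposited counts of 32124 and 27900 in DMSO. The line thus carried keratins and E-cadherin but little of several other epithelial markers.

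ESRP1 and ESRP2 are RNA-binding proteins found in epithelial cells, where they favour the epithelial form of many transcripts and are usually lost when cells take on mesenchymal traits. Their best known target is Fgfr2. The FGF receptors are tyrosine kinases with an extracellular part of immunoglobulin-like domains, and in Fgfr1, Fgfr2 and Fgfr3 the last part of the third domain comes from either of 2 alternative exons, IIIb and IIIc. In epithelia the IIIb exon of Fgfr2 is used and the receptor binds FGF7 and FGF10 from the neighbouring mesenchyme. Mesenchymal cells use the IIIc exon, whose product binds a different range of FGFs, and often express Fgfr1. TGF-β, a cytokine that induces epithelial-mesenchymal transition, is known to shift NMuMG cells between these receptors.

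TGF-β changed 5 of the 6 tested genes of the 8. Fgfr1 rose 15.5-fold and Rbfox2 rose 1.19-fold, whereas Fgfr3 fell 7.86-fold, Fgfr2 4.58-fold and Esrp2 1.97-fold. Of all genes tested, 41.5% were called in this comparison, 21.8% higher and 19.7% lower. With 2APB added, Fgfr1 rose a further 3.42-fold over TGF-β alone, Fgfr2 fell a further 4.66-fold and Fgfr3 a further 1.65-fold, while Esrp2 rose 1.53-fold. These were 4 of the 6 tested genes, 2 higher and 2 lower, against 17.5% of all genes, 6.58% higher and 10.9% lower. Between TGF-β+2APB and DMSO 1 of the 6 was higher and 3 were lower, against 52.8% of all genes, 25.6% higher and 27.2% lower. The 2 genes not tested, Esrp1 and Fgfr4, were below the minimum in all 3 groups.

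**Figure D1:**
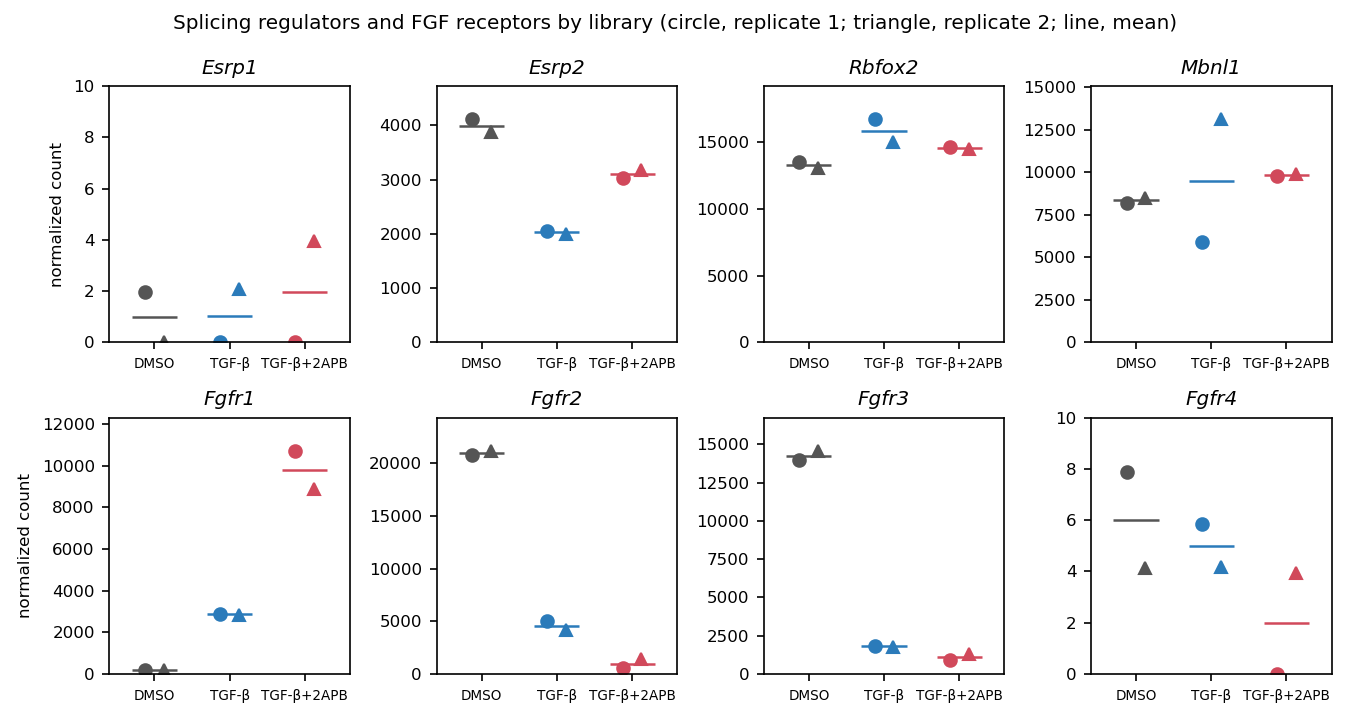
Normalized counts of the 8 genes (vertical axes, linear and starting at 0, each panel with its own range) in the 3 groups; circles are replicate 1, triangles replicate 2 and lines group means. Fgfr1 steps up and Fgfr2 and Fgfr3 step down from DMSO to TGF-β to TGF-β+2APB, Esrp2 is lowest with TGF-β alone, the TGF-β replicates of Mbnl1 lie at 5920 and 13101, and Esrp1 and Fgfr4 stay under 10 on their expanded axes.

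Of the epithelial splicing regulators, Esrp1 (GRCm38, chr4:11331933-11386783, minus strand), whose protein acts together with ESRP2 in epithelial cells, had deposited counts of 2 and 0 in DMSO, 0 and 2 in TGF-β and 0 and 4 in TGF-β+2APB. Its transcript was thus at or near 0 in every library, including those of the DMSO cells, and no fold change was formed.

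Esrp2 (chr8:106130319-106137193, minus strand) was the only measurable member of the family. It had 4106 and 3882 normalized counts in DMSO, 2051 and 2000.5 in TGF-β, and 3021 and 3167 in TGF-β+2APB. The 3 groups did not overlap: TGF-β alone was lowest and TGF-β+2APB lay between it and DMSO. Groups failed to overlap for 72.5% of all tested genes between TGF-β and DMSO, for 86% between TGF-β+2APB and DMSO and for 58% between the treated groups. The mean fell from 3994 ± 158 to 2026 ± 35.8 with TGF-β (log2 fold change -0.98, SE 0.07, FDR = 0.0003172, edgeR). With 2APB added it was 3094 ± 103, a log2 fold change of 0.61 over TGF-β (SE 0.07, FDR = 0.00652, edgeR) that was called under all 15 other settings of the analysis. Against DMSO the level with TGF-β+2APB was still lower by a log2 fold change of -0.37 (FDR = 0.006601, edgeR), but that call was not kept without DMSO replicate 1 (FDR = 0.07899), TGF-β+2APB replicate 1 (FDR = 0.07737) or TGF-β+2APB replicate 2 (FDR = 0.0567).

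Rbfox2 (chr15:77078990-77308434, minus strand) encodes a splicing factor of the FOX family that takes part in the splicing programme of epithelial-mesenchymal transition. It had 13493 and 13082 normalized counts in DMSO, 16696 and 14985 in TGF-β, and 14668 and 14517 in TGF-β+2APB. Both TGF-β libraries were above every other library, by a small margin. The log2 fold change of TGF-β against DMSO was 0.25 (95% interval 0.06 to 0.45, FDR = 0.04727, edgeR). This call was not kept under 8 of 15 other settings, among them without DMSO replicate 1 (FDR = 0.1979), DMSO replicate 2 (FDR = 0.2616), TGF-β+2APB replicate 1 (FDR = 0.1079) or TGF-β+2APB replicate 2 (FDR = 0.107). For TGF-β+2APB against TGF-β the log2 difference was -0.12 (95% interval -0.31 to 0.08, FDR = 0.3461), and against DMSO 0.14 (FDR = 0.2007). The relatives Rbfox1 and Rbfox3 had at most 16 and 2 counts in a library.

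Mbnl1 (chr3:60472559-60629750, plus strand) encodes muscleblind-like 1, a splicing factor of differentiated cells. It had 8196 and 8502 normalized counts in DMSO and 9796 and 9918 in TGF-β+2APB, but 5920 and 13101 in TGF-β. The TGF-β replicates thus lay on either side of all other libraries. No change was called (log2 fold change of TGF-β against DMSO 0.19, 95% interval -0.66 to 1.04, FDR = 0.6922, edgeR), and without TGF-β replicate 1 the same difference was 0.66 (FDR = 0.0008594) and without TGF-β replicate 2 it was -0.50 (FDR = 0.001758). For TGF-β+2APB against TGF-β the log2 difference of 0.05 (FDR = 0.9326) became -0.41 without TGF-β replicate 1 (FDR = 0.0101) and 0.74 without TGF-β replicate 2 (FDR = 0.002353). Across 12718 genes the difference between the TGF-β replicates went with the GC content of the transcript (Spearman's rho -0.566, a description over genes that share 2 libraries), and the longest coding transcript of Mbnl1 has 39.7% GC. With a correction for GC content, the log2 difference of TGF-β against DMSO went from 0.19 to 0.39 and its SE from 0.342 to 0.156, and it was still not called (FDR = 0.07515). For TGF-β+2APB against DMSO the log2 difference was 0.24 and not called (FDR = 0.5896), and it was called with this correction (0.45, FDR = 0.04097). It was also called at 0.24 to 0.25 where the fit held only the 4 libraries compared (FDR = 0.00694) or left out TGF-β replicate 1 (FDR = 0.006754) or replicate 2 (FDR = 0.006574).

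The relative Mbnl2 had the same kind of spread, with 3142 and 6028 normalized counts in the TGF-β replicates, and was not called (log2 fold change -0.35, FDR = 0.3732). Mbnl3 fell from a mean of 350.4 to 90.5 normalized counts with TGF-β (log2 fold change -1.95, FDR = 0.01813, edgeR). It was not called without DMSO replicate 1 or 2 (FDR up to 0.08708). With 2APB added it had 26 and 45 counts (FDR = 0.1068 against TGF-β).

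Of 24 other splicing regulators of cell state, 21 were tested. With TGF-β 3 rose, 2 fell and 16 were not called, where 41.5% of all genes were called, and the median log2 fold change was 0.0022. The rises were Khdrbs3, which encodes the STAR family protein SLM2, from 918 to 3130 normalized counts (log2 fold change 1.77, FDR = 7.247e-05, edgeR), Nova1, best known as a neuronal splicing factor, from 205.2 to 616.8 (1.59, FDR = 0.009378), and Celf2 (0.67, FDR = 0.02965). The falls were Mbnl3 and Rbm47, an RNA-binding protein of epithelial cells that went from 11091 to 3630 normalized counts (-1.61, FDR = 0.006908). With 2APB added, Rbm47 fell again, to 1575 (-1.20, FDR = 0.03966), and Khdrbs3 fell to 2391 (-0.39, FDR = 0.02017). None of the 21 rose, where 6.58% of all genes rose and 10.9% fell in this comparison. Unlike Esrp2, Rbm47 was thus lowest with TGF-β+2APB, with 1103 and 2048 normalized counts in its replicates.

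How many genes of this list were called depended on single libraries, as it did over all genes. In both, TGF-β against DMSO had more calls without either TGF-β replicate and fewer without either DMSO replicate. For TGF-β+2APB against TGF-β, calls were again more without either TGF-β replicate, and fewer without any other single library. The balance of rises and falls in the list also changed with the TGF-β replicate left out. Nova1 was not called without DMSO replicate 1 (FDR = 0.07197) and Celf2 not without DMSO replicate 1 or 2 (FDR up to 0.1509). The later falls of Rbm47 (FDR up to 0.09633) and Khdrbs3 (FDR up to 0.1678) were both lost without DMSO replicate 1 or 2. Rbm47 was also lost without TGF-β replicate 1, and Khdrbs3 without either TGF-β+2APB replicate.

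The receptor genes carried the larger changes. The IIIb exon of Fgfr2 is shown because it codes for the stretch that makes the receptor the epithelial form, and because its use is what the ESRP proteins are best known to promote. It is a coding exon at chr7:130199758-130199905 of GRCm38 (minus strand, 148 bases), read in the direction of the gene from GENCODE transcripts. It is held by 10 of 19 annotated coding transcripts of Fgfr2, and 0 of them carry it together with the alternative exon.
Fgfr2 IIIb: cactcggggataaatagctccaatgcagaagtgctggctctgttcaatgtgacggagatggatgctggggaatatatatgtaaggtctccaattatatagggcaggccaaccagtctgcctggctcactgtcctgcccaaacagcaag

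No pair of related genes among the 8 shared a stretch of 50 bases, the length of a read, between their transcripts. The longest shared stretch was 35 bases, between Esrp1 and Esrp2. The deposited counts are sums over a whole gene, so that IIIb and IIIc reads cannot be told apart in them, and each value below is the level of a receptor gene whatever exon it used.

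Fgfr1 (chr8:25518759-25575718, plus strand) is the receptor gene usually linked to mesenchymal cells. It had 199 and 169 normalized counts in DMSO, 2883 and 2839 in TGF-β, and 10711 and 8865 in TGF-β+2APB. The groups were far apart, and each treated library exceeded every library of the group before it. The mean rose from 184 ± 20.6 to 2861 ± 31.2 with TGF-β (log2 fold change 3.96, SE 0.138, FDR = 5.008e-05, edgeR). It rose again to 9788 ± 1305 with 2APB added (log2 fold change 1.77 over TGF-β, SE 0.12, FDR = 0.003068). Against DMSO, which both comparisons share, TGF-β+2APB was 53.1-fold higher (log2 fold change 5.73, FDR = 1.433e-05). The changes of Fgfr1 were called under all 15 other settings, with log2 fold changes of 3.85 to 4.08 for TGF-β against DMSO and 1.60 to 1.90 for TGF-β+2APB against TGF-β.

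Fgfr2 (chr7:130162451-130266808, minus strand) was the most abundant receptor gene of the DMSO cells. It had 20738 and 21156 normalized counts in DMSO, 5022 and 4125 in TGF-β, and 588 and 1375 in TGF-β+2APB. The 3 groups again did not overlap, in the opposite order to Fgfr1, and on a log scale the TGF-β+2APB replicates differed more than those of the other groups. The mean fell from 20947 ± 296 to 4574 ± 634 with TGF-β (log2 fold change -2.20, SE 0.377, FDR = 0.006355, edgeR) and to 981.6 ± 557 with 2APB added (-2.22 against TGF-β, SE 0.383, FDR = 0.01723). The latter was -1.77 (FDR = 0.01341) without TGF-β+2APB replicate 1 and -2.96 (FDR = 0.00539) without replicate 2. It fell just short of the threshold without DMSO replicate 1 (FDR = 0.05477) or DMSO replicate 2 (FDR = 0.05523), which hold no reads of this comparison but enter the shared estimate of the spread.

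TGF-β+2APB replicate 2, the library with more Fgfr2 of its pair, also had more transcripts of the leukocyte marker list. The summed level of the 5 listed genes in the table was 19.9 CPM there and 2.20 to 6.48 CPM in the other 5 libraries. Ptprc, the CD45 gene, had 742 normalized counts in that library and 36 in its replicate, whereas the T cell marker Cd3e had at most 2 counts in any library. The part of this signal in the Fgfr2 value was not tested.

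Fgfr3 (chr5:33721724-33737068, plus strand) encodes another receptor of epithelial tissues and had 13955 and 14576 normalized counts in DMSO. It had 1851 and 1780.5 in TGF-β and 915 and 1288 in TGF-β+2APB. Nearly all of the difference lay between DMSO and the other groups. The mean fell from 14265 ± 439 to 1816 ± 49.5 with TGF-β (log2 fold change -2.97, SE 0.17, FDR = 0.0001564, edgeR). With 2APB added it was 1102 ± 264 (log2 fold change -0.72 against TGF-β, SE 0.162, FDR = 0.03508). This smaller step was not called with either DMSO replicate left out (FDR = 0.08996 and 0.09022) or without TGF-β+2APB replicate 1 (-0.53, FDR = 0.0795).

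Fgfr4 (chr13:55152818-55168759, plus strand), a receptor of liver and some other tissues, had deposited counts of 8 and 4 in DMSO, 6 and 4 in TGF-β, and 0 and 4 in TGF-β+2APB. It was not tested, and no difference was detectable at this depth. The liver transcripts of the DMSO libraries were thus not accompanied by measurable Fgfr4.

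**Figure D2:**
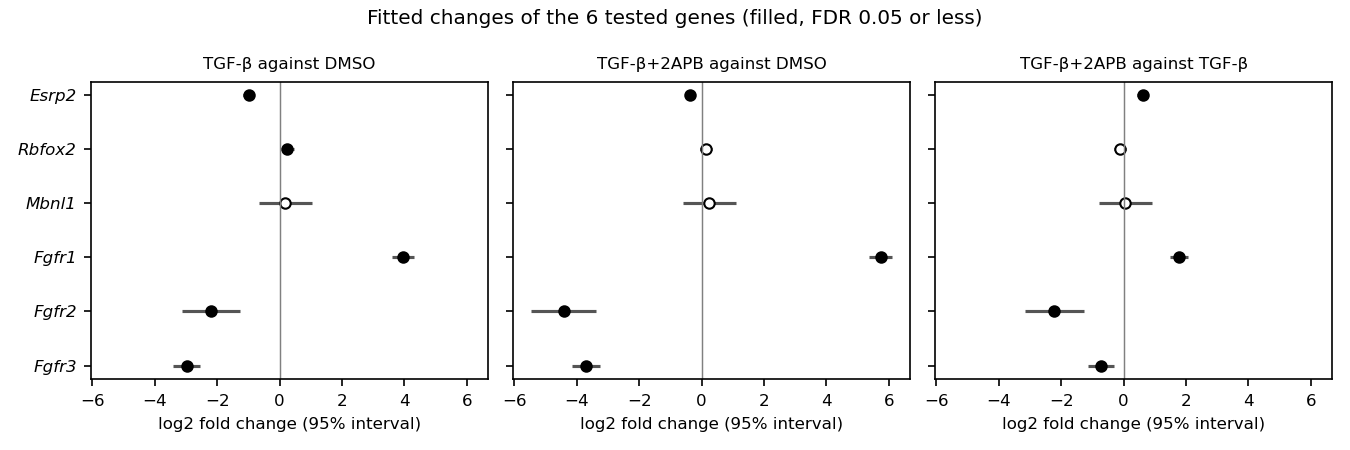
Fitted log2 fold changes (horizontal axes) of the 6 tested genes in the 3 comparisons with 95% intervals; filled points have an FDR of 0.05 or less. Fgfr1 lies to the right of 0 and Fgfr2 and Fgfr3 to the left in every panel, Esrp2 is lower against DMSO and higher against TGF-β, and the wide interval of Mbnl1 crosses 0 in all 3 panels.

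The balance of Fgfr1 and Fgfr2 was taken within each library, where the scaling between libraries has no effect. In DMSO there were 104.5 and 124.9 Fgfr2 counts for each Fgfr1 count. In TGF-β there were 1.74 and 1.45, and in TGF-β+2APB the order had turned, with 18.2 and 6.45 Fgfr1 counts for each Fgfr2 count. The mean log2 ratio of Fgfr1 to Fgfr2 counts was -6.84 ± 0.182 in DMSO, -0.67 ± 0.185 in TGF-β and 3.44 ± 1.06 in TGF-β+2APB, so the ratio shifted 71.8-fold with TGF-β and another 17.2-fold with 2APB. The ratio thus passed 1 only in the TGF-β+2APB libraries when counts were compared. In a two-sided exact permutation test each pair of groups gave p = 0.333, the smallest value that 2 against 2 libraries can give.

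Levels of different genes were compared as CPM per kilobase of the longest coding transcript. In DMSO the order was Fgfr2 (63.6 ± 0.897), Fgfr3 (44.0 ± 1.35), Rbfox2 (25.2 ± 0.551), Mbnl1 (19.3 ± 0.5), Esrp2 (14.8 ± 0.586) and Fgfr1 (0.477 ± 0.0534), and neighbours in this order did not overlap. In TGF-β the order was Rbfox2 (30.0 ± 2.29), Mbnl1 (22.0 ± 11.7), Fgfr2 (13.9 ± 1.92), Esrp2 (7.50 ± 0.133), Fgfr1 (7.43 ± 0.0809) and Fgfr3 (5.60 ± 0.153). There Mbnl1 overlapped both of its neighbours, and Esrp2 and Fgfr1 did not differ beyond their spread. In TGF-β+2APB it was Rbfox2 (27.6 ± 0.202), Fgfr1 (25.4 ± 3.39), Mbnl1 (22.8 ± 0.2), Esrp2 (11.4 ± 0.381), Fgfr3 (3.39 ± 0.814) and Fgfr2 (2.98 ± 1.69). Fgfr1 overlapped Rbfox2, and Fgfr3 and Fgfr2 overlapped each other, so the gene with the highest level of the 8 in DMSO was among the lowest measurable ones here. Esrp1 and Fgfr4 were below 0.04 CPM per kilobase in every library.

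The 4 receptor genes together had 106.5 and 109.6 CPM per kilobase in DMSO, 28.4 and 25.4 in TGF-β, and 32.4 and 31.2 in TGF-β+2APB. Receptor transcript was therefore lower in all treated libraries, and its make-up differed. Fgfr1 made up 0.484% and 0.401% of the sum in DMSO, 26.3% and 29.0% in TGF-β, and 85.8% and 73.8% in TGF-β+2APB. Fgfr2 still held the largest share with TGF-β alone, at 53.6% and 49.3%, and only 5.51% and 13.4% with 2APB added. Fgfr3 went from 40.4% and 40.99% to 20.1% and 21.6% and then to 8.70% and 12.7%.

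**Figure D3:**
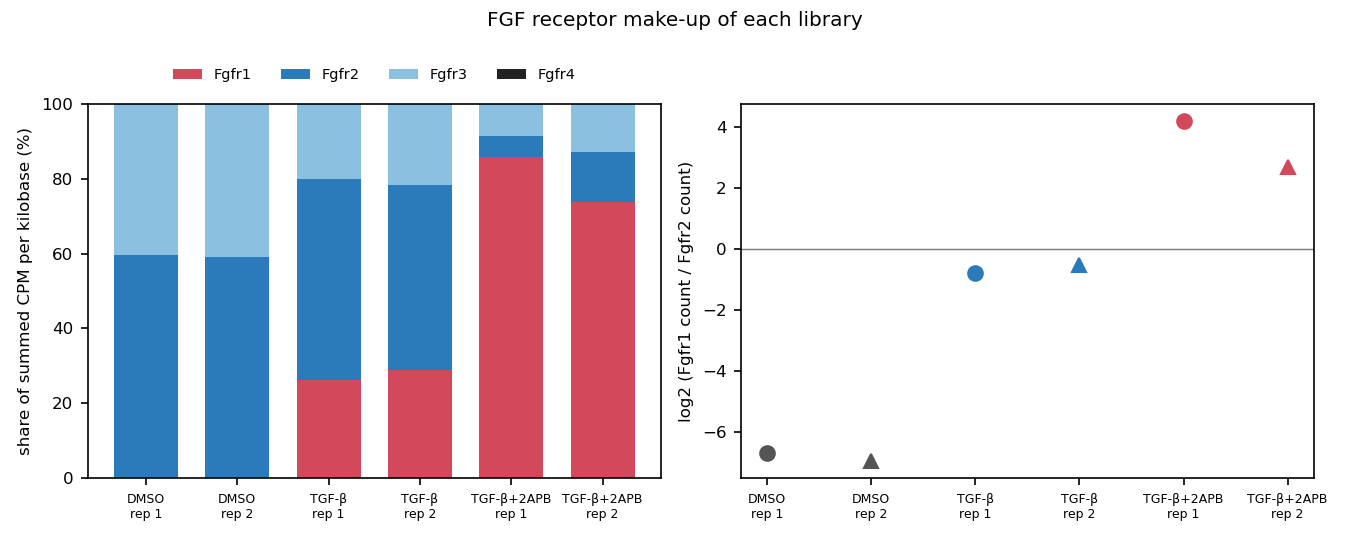
Left, share of each receptor gene (percent) in the summed CPM per kilobase of the 4 genes in each library; right, log2 ratio of Fgfr1 to Fgfr2 counts by library, with a line at equal counts. Fgfr4 is at most 0.0809% and cannot be seen; the Fgfr1 share is under 0.5% in DMSO and 73.8% or more in TGF-β+2APB, and the log2 ratio is above 0 only in the TGF-β+2APB libraries.

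Of 22 FGF genes listed, 18 were in the table and 4 were tested, and Fgf7 and Fgf10, the mesenchymal ligands of the IIIb form of Fgfr2, were scarce, with 20 to 24 deposited counts per library for Fgf7 and at most 6 for Fgf10. With TGF-β 2 of the 4 fell and none rose, where 19.7% of all genes fell. Fgf1, a ligand of all FGF receptors, had 10679 and 10351 normalized counts in DMSO, 911.6 and 794.8 in TGF-β, and 263 and 243 in TGF-β+2APB. It fell in both steps (log2 fold change -3.62, SE 0.1, FDR = 2.974e-05 with TGF-β and -1.75, FDR = 0.002341 with 2APB added, edgeR). Fgf1 thus followed the direction of Fgfr2 and Fgfr3.

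Fgf13, an FGF homologue that acts inside the cell, fell from a mean of 1014 to 428 and then 89.9 normalized counts (log2 fold changes -1.24, FDR = 0.02227, and -2.25, FDR = 0.01136). The first of these steps was lost without DMSO replicate 1 or 2 or TGF-β replicate 2 (FDR up to 0.1057). Fgf18, a ligand that prefers IIIc receptors and FGFR3, had 29.5 and 22.7 normalized counts in DMSO and 37.0 and 35.3 in TGF-β, which was not called (FDR = 0.2551). With 2APB added it rose to 228 and 180 (log2 fold change 2.49, FDR = 0.006812). It was the only FGF gene called higher in that comparison, in which 2 of the 4 fell. Of all genes, 6.58% were higher and 10.9% lower there.

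Of 8 co-receptors and binding proteins, 6 were tested, and 3 fell and 1 rose with TGF-β, where 19.7% of all genes fell and 21.8% rose. Klb, the co-receptor for FGF15 and FGF21, fell from a mean of 696.6 to 90.3 normalized counts (log2 fold change -2.94, FDR = 0.00326, edgeR). Flrt1 (-2.36, FDR = 0.002792) and Flrt3 (-1.97, FDR = 0.0006709), membrane proteins that bind FGF receptors, also fell, and Flrt2 rose (1.01, FDR = 0.01989). The FLRT genes thus did not move as a group. With 2APB added Flrt3 fell further (-0.79, FDR = 0.03213) and Fgfrl1, a receptor relative without a kinase domain, rose from 1249 to 1913 normalized counts (0.62, FDR = 0.01661). With TGF-β alone Fgfrl1 was not called (0.27, FDR = 0.091).

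Flrt2 was not called without DMSO replicate 1 or 2 (FDR up to 0.1054). The calls of Flrt3 and Fgfrl1 between TGF-β+2APB and TGF-β were lost without DMSO replicate 1, DMSO replicate 2 or TGF-β+2APB replicate 1 (FDR up to 0.08539 and 0.1222), and that of Fgfrl1 also without TGF-β+2APB replicate 2.

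Inside the cell, the receptor's signal is passed on by adaptor proteins. All 10 adaptor genes listed were tested, and with TGF-β 2 rose and 8 were not called, where 41.5% of all genes were called, with a median log2 fold change of 0.03. Ptpn11, the phosphatase SHP2 that links the receptors to the Ras pathway, rose from 19802 to 29191 normalized counts (0.56, FDR = 0.00273, edgeR). Shc1 rose by 0.28 (FDR = 0.04951) and fell by 0.45 with 2APB added (FDR = 0.02298). Both Shc1 calls were lost without DMSO replicate 1 or 2 or TGF-β+2APB replicate 1 or 2 (FDR up to 0.2555 and 0.1418). No other adaptor gene was called between TGF-β+2APB and TGF-β, where 17.5% of all genes were called.

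FGF signals through ERK switch on transcription factors of the ETS family and feedback inhibitors, and 10 of 11 such genes were tested. These genes also respond to other receptor tyrosine kinases. With TGF-β 5 rose, 1 fell and 4 were not called, where 21.8% of all genes rose and 19.7% fell, and the median log2 fold change was 0.58 against -0.01 over all genes. Etv4, an ETS factor, had 864.8 and 983 normalized counts in DMSO and 2918 and 2395 in TGF-β (log2 fold change 1.52, FDR = 0.001585, edgeR). Il17rd, the receptor inhibitor SEF, rose by a log2 fold change of 1.18 (FDR = 0.002045). Etv5, Spred2 and Spred3 rose by 0.93 to 1.08. Spry4, a Sprouty inhibitor, was the gene that fell, from a mean of 1024 to 545.6 (-0.91, FDR = 0.004783).

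With 2APB added to TGF-β the direction was different, with 7 of the 10 response genes lower, none higher and 3 not called. The median log2 fold change was -0.89 against -0.0037 over all genes, of which 10.9% were called lower. Spry4 fell to 160 and 166 normalized counts (-1.74, FDR = 0.003855, edgeR) and Etv4 to 728.6 and 965 (-1.65, FDR = 0.005565). Dusp6, the phosphatase that inactivates ERK, had 14580.2 and 11928 normalized counts in TGF-β and 4449 and 6562 in TGF-β+2APB (-1.27, FDR = 0.01444). Spry1, Spry2, Etv5 and Spred3 fell by 0.75 to 0.99 on the log2 scale. In TGF-β+2APB the library values of Fgfr1 were highest while those of Spry1, Spry2, Spry4, Dusp6 and Spred1 were lowest. Those of Spred2 were also highest there, at 7339 and 6452 normalized counts. Il17rd and Spred3 lay between DMSO and TGF-β, and Etv4 and Etv5 overlapped DMSO.

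The number of response genes that fell was 7 under 11 of 15 other settings, and no setting gave more than 1 that rose. It was 8 without TGF-β replicate 1 or replicate 2, 5 without TGF-β+2APB replicate 1 and 6 without TGF-β+2APB replicate 2. Etv5 (FDR up to 0.07823) and Spry1 (FDR = 0.05035) were the calls lost without TGF-β+2APB replicate 1, and Etv5 was also lost without replicate 2. Against DMSO, 3 of the 10 were higher and 5 lower in TGF-β+2APB, where 25.6% of all genes were higher and 27.2% lower.

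**Figure D4:**
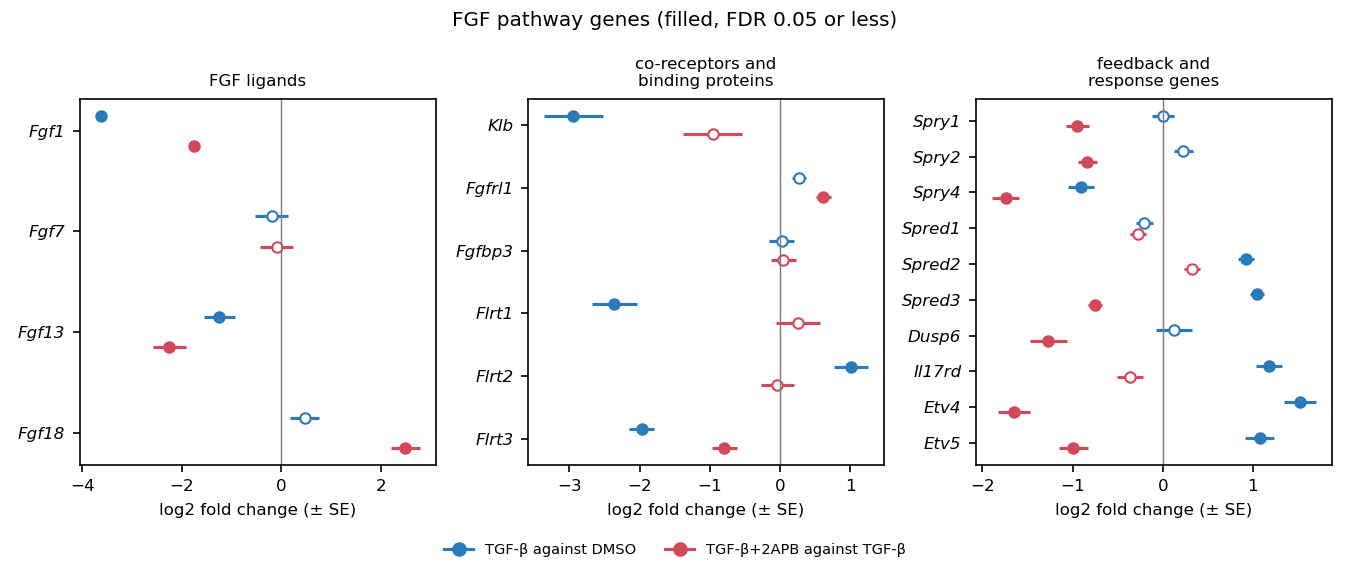
Fitted log2 fold changes ± SE (horizontal axes) of the tested FGF ligands, co-receptors and binding proteins, and feedback and response genes, for TGF-β against DMSO (blue) and TGF-β+2APB against TGF-β (red); filled points have an FDR of 0.05 or less. Fgf1 lies to the left of 0 in both comparisons, and the red points of 9 of the 10 response genes lie to the left of 0, 7 of them filled.

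Genes whose exons ESRP proteins are known to control were examined at the gene level, 8 of 9 being in the table and all 8 tested. With TGF-β 3 rose, 1 fell and 4 were not called, where 41.5% of all genes were called, and the median log2 fold change was 0.0093. Cd44, the hyaluronan receptor, rose from 23797 to 47751 normalized counts (FDR = 0.0008022, edgeR), and Enah, an actin regulator, from 9900 to 18730.0 (log2 fold change 0.92, FDR = 0.002433). Ctnnd1, the p120 catenin gene, rose by 0.28 (FDR = 0.01869). Magi1, a scaffold protein of cell junctions, fell from 17818 to 8010 (-1.15, FDR = 0.0001796) and fell again with 2APB added, to 5125 (-0.64, FDR = 0.005565). Magi1 was the only gene of this list called between the treated groups, where 17.5% of all genes were called. Ctnnd1 was not called without either DMSO replicate or either TGF-β+2APB replicate (FDR up to 0.1582). In both comparisons the genes called in this list changed with the TGF-β replicate left out, and the number of calls over all genes changed too. These are gene totals and say nothing on which exons were used.

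The last list held the E-box repressors and the epithelial transcription factors that oppose them. ZEB1, ZEB2, SNAI1 and SNAI2 repress epithelial genes, and ZEB1 is known to repress Esrp1. Of 9 genes, 6 were tested, and with TGF-β 4 rose and 2 were not called, where 21.8% of all genes rose. Zeb2 had 1443 and 1380 normalized counts in DMSO, 3898 and 6176 in TGF-β and 7547 and 6716 in TGF-β+2APB (log2 fold change with TGF-β 1.84, FDR = 0.001828, edgeR). Zeb1 rose from a mean of 3711 to 9394 (1.34, FDR = 0.0002679) and Snai2 from 175.2 to 386.8 (1.14, FDR = 0.008192). Snai1 was scarce, with deposited counts of 6 and 12 in DMSO, 26 and 40 in TGF-β and 44 and 62 in TGF-β+2APB (1.86 with TGF-β, FDR = 0.03414).

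Ovol1 (-0.91, FDR = 0.1264) and Grhl1 (-0.28, FDR = 0.3957) were not called with TGF-β, and Twist1, Ovol2 and Grhl2 had at most 6 counts in a library. Without DMSO replicate 1 or 2 the calls of Snai1 (FDR up to 0.1787) and Snai2 (FDR up to 0.06651) were lost, and that of Snai1 also without TGF-β replicate 2. Between TGF-β+2APB and TGF-β none of the 6 was called by edgeR or by DESeq2, where edgeR called 17.5% of all genes. The unadjusted p was 0.05871 or more for each in edgeR, so 0 of the 6 were under 0.05, with Zeb2 at a log2 difference of 0.50 (FDR = 0.1652) and Snai1 at 0.65 (95% interval -0.51 to 1.81, FDR = 0.3847). The means in TGF-β and TGF-β+2APB were 9394 and 10459 for Zeb1 and 5037 and 7132 for Zeb2, and any link to the level of Esrp2 was not tested.

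Finally, the genes with the most similar profile were sought for each tested gene, as the 2 genes with the smallest root mean square difference of log2 CPM, centred on each gene's mean, over the 6 libraries. For Fgfr1 they were Dynap (difference 0.138), which had no counts in DMSO, and Olfm2 (0.141), an olfactomedin, with 41.3 and 33.1 normalized counts in DMSO, 705.1 and 649.5 in TGF-β and 2099 and 1616 in TGF-β+2APB. A small count was added before the log was taken, which lifts the zeros of Dynap. Its fitted log2 fold change with TGF-β was 8.10, against 3.96 for Fgfr1. For Fgfr2 they were Adora1 (0.146), the adenosine A1 receptor, and Glyat (0.171), a glycine acyltransferase of liver mitochondria. Adora1 had 329 and 896 normalized counts in the TGF-β+2APB replicates, a spread in the same direction as that of Fgfr2. For Fgfr3 they were Hal (0.134), the histidine ammonia-lyase of liver and skin, and Cxcl17 (0.155), a chemokine of mucosal epithelia. For Esrp2 they were Fam73a (0.0499) and Sh3yl1 (0.051), for Rbfox2 Specc1l (0.0169) and Farp1 (0.0181), and for Mbnl1 Prex2 (0.0494) and Ube2v2 (0.0569). Prex2 and Ube2v2 shared with Mbnl1 the gap between the TGF-β replicates, at 8374 and 17801 and at 2293 and 4787 normalized counts. Such shared gaps follow from the choice of these genes, since the profiles compared held all 6 libraries.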

How the data were processed

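RNA of NMuMG cells was purified with oligo-dT and sequenced as single-end reads of 50 bases. The authors aligned the reads with TopHat2 2.0.13 and assigned them to genes with featureCounts. The deposited values are the resulting counts, not scaled between libraries. The submitters' processing notes name the build mm10, whereas the methods of the study name a human build; the gene annotation, strand setting and treatment of reads with several alignments are not given in the sources used here. A spreadsheet had turned 25 gene names into dates, and these entries were kept in the fits.

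The tests used edgeR 4.0.16 (R 4.3.3) with TMM factors and a minimum mean of 20 normalized counts. All 3 groups entered 1 quasi-likelihood fit without covariates, and p-values were adjusted by the Benjamini-Hochberg method over 13353 genes. The SE is the log2 fold change over the square root of F. Totals were 71840570 to 79473182 counts per library, and precision rests mainly on 2 replicates per group. Lengths, GC content and exons came from GENCODE transcripts and positions from RefSeq, both on GRCm38. Read-level and isoform data were not analysed here, and 1 gene of the list of ESRP targets was left out of that list and is not reported here.

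The 8 genes and the lists were chosen with earlier results of these data known. Named are the 8 genes, family members, all E-box factors, the nearest profiles, and for each list the called genes with the 2 largest rises and falls in TGF-β against DMSO and in TGF-β+2APB against TGF-β. Celf2, Ctnnd1, Fgf7, Fgf10, Dusp6, Etv5, Spred1, Spred2, Spred3, Spry1, Spry2 and the markers were named after their values were seen. Alternatives were DESeq2 1.42.0, other scaling factors, no filter, a replicate block, fits of 4 libraries, halved counts and each library left out, and, after the data had been seen, a GC content correction (loess, span 0.5) and a replicate block in which the 2 TGF-β+2APB libraries trade numbers. The procedure was tested on simulated data.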

Additional observations from a re-analysis of the deposited data

How the results depend on the processing

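Of 270 fold changes of the 6 tested genes recomputed under the alternatives, 239 kept their direction and their side of the threshold, 19 were no longer called, 10 became called and 2 reversed. The 2 reversals were those of Mbnl1, at -0.50 for TGF-β against DMSO without TGF-β replicate 2 and -0.41 for TGF-β+2APB against TGF-β without TGF-β replicate 1, both called there. With the other TGF-β replicate left out instead, the same differences were 0.66 and 0.74. Leaving out a single library could change how many of the 6 tested genes were called, and the number of calls over all genes also changed. The log2 shift of the Fgfr1 to Fgfr2 ratio was then 6.04 to 6.30 for TGF-β against DMSO. It was 9.52 to 11.0 for TGF-β+2APB against DMSO and 3.36 to 4.86 for TGF-β+2APB against TGF-β. With only the 4 libraries compared, 2 of the 6 tested genes were called between TGF-β+2APB and TGF-β, Esrp2 and Fgfr1, and Fgfr2 just missed the threshold (FDR = 0.05133). Over all genes that comparison gave 2334 calls, 860 with only its 4 libraries, 986 and 1260 without TGF-β+2APB replicates 1 and 2, and 3793 and 5405 without TGF-β replicates 1 and 2. Between TGF-β+2APB and DMSO the 7044 calls became 4355 and 4435 without a DMSO replicate. The cause of these shifts was not tested.

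Replicate differences had correlations over genes of 0.156 (DMSO and TGF-β), -0.479 (DMSO and TGF-β+2APB) and -0.247 (TGF-β and TGF-β+2APB). They also went with GC content (Spearman's rho -0.566 in TGF-β and 0.261 in TGF-β+2APB), so these correlations cannot show whether the replicate numbers pair the samples. With the replicate number as a block, 4, 4 and 3 of the 6 tested genes were called for TGF-β against DMSO, TGF-β+2APB against DMSO and TGF-β+2APB against TGF-β. Rbfox2 was not called in the first (FDR = 0.0677) and Fgfr3 not in the last (FDR = 0.05693). Of all 13353 genes tested, 4737, 6358 and 1342 were called. With the TGF-β+2APB replicates exchanged in the block, 4 of the 6 were called in each comparison, against 5706, 7232 and 2465 of all genes. With 2 replicates per group, small changes such as that of Rbfox2 lay near the threshold, and Esrp1 and Fgfr4 were too scarce to test.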
